A study of Mus musculus with 8 samples.

Results

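The 10 genes described here encode proteins of the perineuronal and scar-associated matrix: Vcan, Bcan, Ncan, Acan, Cspg4, Cspg5, Ptprz1, Tnc, Tnr and Hapln1. They were listed by symbol, without a rule on their levels, and all 10 were found among the 54232 genes of the deposited count matrices. The data are single-nucleus RNA sequencing counts from 8 brain libraries of male Swiss Webster mice aged 10 weeks. Each library was made from nuclei of a 2 mm cube of frozen forebrain, described as perilesional for all groups. The 4 groups had 2 libraries each: control surgery, BCAS alone, TBI (traumatic brain injury) alone, and BCAS+TBI. BCAS is given only as an abbreviation, which the study's title ties to cerebral hypoperfusion, and the title's question is whether hypoperfusion worsens the injury. All groups shared sex, strain and age, and all mice had surgery of some kind. The time from surgery to dissection and the number of animals in a library are not given in the sources used here. Libraries of a group are called biological replicates, and with 2 per group every p-value below rests on the spread between few libraries.

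Chondroitin sulfate proteoglycans are core proteins that carry sulfated sugar chains. The lecticans versican (Vcan), brevican (Bcan), neurocan (Ncan) and aggrecan (Acan) bind hyaluronan at one end and tenascins at the other, and link proteins such as Hapln1 hold the lectican to hyaluronan. Together these molecules form the diffuse matrix of the brain, the matrix at nodes of Ranvier and the perineuronal nets that wrap parvalbumin interneurons. Cspg4, also known as NG2, is a membrane proteoglycan of oligodendrocyte precursors and pericytes, Cspg5 (neuroglycan C) is a membrane proteoglycan of the nervous system, and Ptprz1 is a receptor phosphatase whose secreted form is phosphacan. After injury to the central nervous system several of these proteins are known to accumulate in the glial scar, where their chains restrain the growth of axons.

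The lectican and link protein genes lie side by side in the mouse genome. In the GENCODE M21 annotation of GRCm38, Vcan (chr13:89655312-89742509, minus strand) lies 43.66 kb from Hapln1 (chr13:89539796-89611652, plus strand). Bcan (chr3:87987531-88000230, minus strand) lies 21.52 kb from Hapln2. Ncan (chr8:70093085-70120873, minus strand) lies 2222 bases from Hapln4, and Acan (chr7:79053483-79115099, plus strand) lies 2 bases from Hapln3. No protein-coding gene lies between the members of any of these 4 pairs. The other members are Cspg4 (chr9:56865033-56899870, plus strand), Cspg5 (chr9:110243783-110262576, plus strand), Ptprz1 (chr6:22875502-23052916, plus strand), Tnc (chr4:63959785-64047015, minus strand) and Tnr (chr1:159523769-159931729, plus strand).

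RefSeq promoter entries (build GRCm38.p6) were found for 9 of the 10 members, all but Cspg5. The 4 printed here are of 1 lectican and 1 tenascin highest in precursors (Vcan and Tnr) and 1 of each highest in astrocytes (Bcan and Tnc). Each run is the 250 bases before the RefSeq start, 5′ to 3′ on the gene's strand. Capitals mark matches on either strand to 3 short motifs: GGGCGG (the GC box), ACAAAG (a SOX core) and TATAAA (the TATA box). The windows are chr13:89742513-89742762 for Vcan, chr1:159523519-159523768 for Tnr, chr3:88000357-88000606 for Bcan and chr4:64047016-64047265 for the first of the Tnc entries.
Vcan: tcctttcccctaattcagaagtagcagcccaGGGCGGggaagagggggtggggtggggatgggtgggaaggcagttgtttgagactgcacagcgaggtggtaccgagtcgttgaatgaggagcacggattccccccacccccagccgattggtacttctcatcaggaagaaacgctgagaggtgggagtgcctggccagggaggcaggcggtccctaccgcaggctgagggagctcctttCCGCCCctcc
Tnr: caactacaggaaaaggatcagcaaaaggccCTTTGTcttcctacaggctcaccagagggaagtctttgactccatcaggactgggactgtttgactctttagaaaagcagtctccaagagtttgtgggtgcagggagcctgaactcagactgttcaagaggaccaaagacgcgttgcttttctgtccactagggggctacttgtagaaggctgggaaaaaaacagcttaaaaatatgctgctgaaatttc
Bcan: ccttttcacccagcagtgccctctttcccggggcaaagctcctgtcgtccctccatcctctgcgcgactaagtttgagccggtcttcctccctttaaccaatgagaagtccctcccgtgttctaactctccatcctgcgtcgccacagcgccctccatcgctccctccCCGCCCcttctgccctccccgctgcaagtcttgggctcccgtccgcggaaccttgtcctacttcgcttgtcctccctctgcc
Tnc: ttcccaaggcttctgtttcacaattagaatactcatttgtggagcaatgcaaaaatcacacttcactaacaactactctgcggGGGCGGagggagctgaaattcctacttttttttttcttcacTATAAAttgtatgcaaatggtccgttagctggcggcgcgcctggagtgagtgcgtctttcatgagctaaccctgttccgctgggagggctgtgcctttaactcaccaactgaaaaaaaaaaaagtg
The Vcan window held 2 GC boxes, the Bcan window 1, and the Tnc window 1 GC box and 1 TATA box. The Tnr window held neither and had 1 SOX core. These are common letters: of 32851 RefSeq windows of this length, 32.7% held a GC box, 16.5% a SOX core and 12.4% a TATA box. A match is a description of the sequence, and the data hold no measure of binding.

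The libraries held 28118725 to 56135192 UMIs (unique molecular identifiers, each counting 1 captured RNA molecule) and 45560 nuclei after filtering. Of these nuclei, 34056 fell into clusters named by marker genes, with the members kept out of the clustering. The classes used most, called below by the cell type alone, were precursor-like (1091 nuclei, 111 to 158 per library), astrocyte-like (3294, 253 to 565), fibroblast-like (934, 85 to 194), inhibitory neuron-like (3829, 363 to 786) and excitatory neuron-like (17951, 1803 to 3349). The names held against their markers: Pdgfra stood at 1097 CPM in precursors and at 189.6 CPM in fibroblasts, the next class. Here CPM is the count of a gene scaled to the total UMIs of the same class and library, as counts per 1e6. It allows a gene to be compared between classes and libraries but not with another gene, since these UMIs come from the 3′ end at unknown efficiency. Cell barcodes shared by chance between a pair of libraries numbered 5 to 20.

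The libraries also split by depth in a way that crossed the groups. Control 1, BCAS 1, TBI 1 and BCAS+TBI 2 had 28118725 to 33363564 UMIs, and mitochondrial UMIs made up 1.2% to 2.77% of them. Control 2, BCAS 2, TBI 2 and BCAS+TBI 1 had 42651388 to 56135192 UMIs with 0.511% to 1.04% mitochondrial. Ribosomal protein genes took 0.486% to 0.855% of the UMIs in the shallow libraries and 0.185% to 0.241% in the deep ones. Each group has 1 library of each kind (called library sets 1, the shallow, and 2, the deep), so comparisons between groups are balanced over this split, and the counts of calls are also given with it as a block (the library-set block). Below, the per-library values run in the order control 1, control 2, BCAS 1, BCAS 2, TBI 1, TBI 2, BCAS+TBI 1, BCAS+TBI 2.

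**Figure D1:**
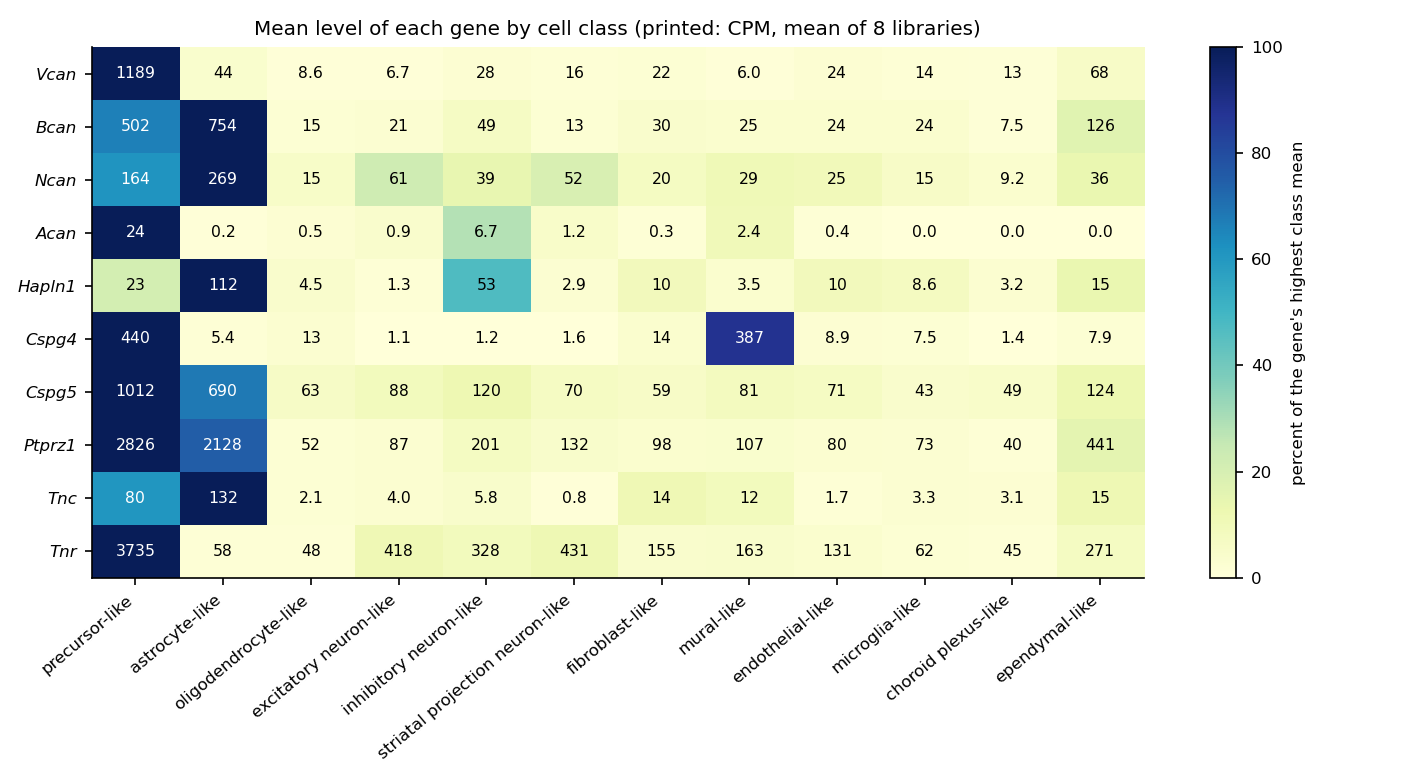
Mean level of each of the 10 genes (rows) in each named cell class (columns); the printed values are CPM averaged over 8 libraries, and the colour is the percentage of the gene's highest class mean. The highest mean of every gene lies in the precursor or astrocyte column, with mural cells close to precursors for Cspg4.

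Among the named classes, every member had its highest mean level in precursor-like or astrocyte-like nuclei. Subsets of the inhibitory class are given further below. Vcan, Acan, Cspg4, Cspg5, Ptprz1 and Tnr were highest in precursors, and Bcan, Ncan, Tnc and Hapln1 in astrocytes. Fibroblasts led for none of the 10. When nuclei were instead gated one by one on the same markers, 6 of the 10 kept their highest class and the levels fell by more than 1.5-fold. The gate gave more astrocytes (8168) but fewer precursors (586), inhibitory neurons (2715), mural cells (308) and fibroblasts (142) than the clusters. Under that gate Bcan and Tnc were highest in precursors, Cspg4 in mural cells and Hapln1 in inhibitory neurons.

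Among the lecticans, Vcan was the most restricted. In precursors Vcan stood at 1160, 1395, 1077, 1345, 1009, 1209, 1182 and 1138 CPM (mean 1189 ± 128.5, SD over 8 libraries, 3232 UMIs). This was 17.6-fold above ependymal cells (67.7 CPM), the next class, and precursors held 59.9% ± 7.94 of all Vcan UMIs in the named classes. The lowest precursor library was well above the highest value in astrocytes, where Vcan ran from 25.5 to 80.1 CPM (mean 44.3). Vcan averaged 27.8 CPM in inhibitory neurons and 22.0 CPM in fibroblasts, the latter on 48 UMIs and ranging from 5.4 to 68.9 CPM.

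Bcan was shared by astrocytes and precursors. In astrocytes Bcan stood at 779, 728, 804, 651, 880, 655, 734 and 803 CPM (mean 754.2 ± 78.3). In precursors Bcan stood at 612, 462, 584, 384, 582, 361, 450 and 583 CPM (mean 502.1 ± 99.99). Astrocytes were above precursors in all 8 libraries. Bcan averaged 125.7 CPM in ependymal cells, 49.5 CPM in inhibitory neurons and 30.5 CPM in fibroblasts.

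Ncan followed the same order with a smaller gap to neurons. Ncan stood at 242, 300, 302, 203, 308, 307, 235 and 255 CPM in astrocytes (mean 268.9 ± 40.3). In precursors Ncan averaged 164.0 ± 27.8 CPM. Excitatory neurons held Ncan at 60.8 ± 2.85 CPM, from 57.0 to 65.3 CPM, the narrowest spread between libraries of the Ncan values given here. Excitatory nuclei contributed 67.1% of the Ncan UMIs in the named classes. They were the most numerous class and also had more UMIs per nucleus (library medians 4232.5 to 8858) than astrocytes (1466 to 2432).

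Acan, the core protein of perineuronal nets, was sparse. In precursors Acan stood at 16.1, 32.1, 9.49, 26.2, 11.7, 36.7, 32.5 and 24.0 CPM, a mean of 23.6 ± 10.2 from 67 UMIs. In inhibitory neurons Acan stood at 7.34, 6.52, 6.96, 6.69, 5.91, 5.98, 7.15 and 7.25 CPM, a mean of 6.72 ± 0.555 from 162 UMIs. The inhibitory values lay within a narrow band, while the precursor values varied almost 4-fold on few molecules. Astrocytes gave 1 Acan UMI in 3294 nuclei, and fibroblasts 1 in 934.

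Among the named classes the link protein Hapln1 was highest in astrocytes, at 118, 127, 97.4, 86.2, 112, 102, 123 and 127 CPM (mean 111.5 ± 14.95). Inhibitory neurons held Hapln1 at 46.3, 48.6, 52.7, 49.8, 54.2, 48.8, 67.5 and 53.1 CPM (mean 52.6 ± 6.57). They contributed 52.0% of the Hapln1 UMIs in the named classes. The lowest astrocyte library was above the highest inhibitory one. The other link proteins had other leading classes: Hapln2, which sits at nodes of Ranvier, averaged 288.4 ± 47.9 CPM in oligodendrocytes, 20.2-fold above the next class. Hapln4 averaged 24.0 ± 5.73 CPM in inhibitory and 14.1 ± 2.37 CPM in excitatory neurons.

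Of the membrane proteoglycans, Cspg4 was a gene of precursors and mural cells alike. Cspg4 stood at 367, 486, 460, 460, 401, 560, 394 and 395 CPM in precursors (mean 440.4 ± 63.7). In mural cells Cspg4 stood at 218, 587, 313, 452, 414, 437, 460 and 217 CPM (mean 387.2 ± 128.7, 238 UMIs). Precursors were above mural cells in 5 of 8 libraries, so the order of these 2 classes did not exceed the spread. Mural cells were in turn 28.1-fold above fibroblasts (13.8 CPM). Without nuclei of very high UMI count, mural cells led at 505.2 CPM against 442.6 CPM in precursors. The 7 precursor markers summed to 166.9 CPM in mural cells, against 6967 ± 302 CPM in precursors.

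Cspg5 and Ptprz1 were high in precursors and astrocytes, with a lower level in ependymal cells and neurons. Next after precursors and astrocytes came ependymal cells for both genes, at 124.4 ± 49.9 CPM of Cspg5 and 441.1 ± 156.7 CPM of Ptprz1. Oligodendrocytes (63.0 CPM of Cspg5 and 51.9 CPM of Ptprz1) and microglia (43.1 and 72.6 CPM) were below inhibitory neurons for both genes. Cspg5 in precursors stood at 1241, 958, 1243, 676, 1140, 793, 765 and 1282 CPM (mean 1012 ± 245). Cspg5 in astrocytes stood at 787, 612, 881, 485, 876, 500, 503 and 873 CPM (mean 689.6 ± 182.4). In both classes all 4 shallow libraries were above all 4 deep ones. Inhibitory neurons averaged 120.4 CPM of Cspg5 and excitatory neurons 88.4 CPM, the latter with 49.4% of the Cspg5 UMIs.

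Ptprz1 in precursors stood at 2618, 3053, 2938, 2647, 2670, 2488, 2706 and 3491 CPM (mean 2826 ± 323.9). Astrocytes had 2128 ± 143.9 CPM of Ptprz1, from 1923 to 2363 CPM, below every precursor library. Fibroblasts averaged 98.2 CPM of Ptprz1 and striatal projection neurons 132.1 ± 34.1 CPM.

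The tenascins were split between astrocytes and precursors. Tnc, the tenascin of embryonic and injured tissue, stood at 98.8, 140, 103, 144, 98.1, 180, 183 and 111 CPM in astrocytes (mean 132.2 ± 35.1). In precursors Tnc stood at 64.4, 121, 114, 109, 49.7, 82.6, 71.9 and 28.0 CPM (mean 80.1 ± 33.0), on 7 to 50 UMIs per library. Fibroblasts averaged 14.5 CPM of Tnc on 28 UMIs in all.

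Tnr, the tenascin of perineuronal nets and nodes, was led by precursors at 3613, 3675, 3170, 3998, 3740, 3840, 4403 and 3443 CPM (mean 3735 ± 368.3). This was 8.67-fold above the next class, striatal projection neurons (430.9 ± 70.9 CPM). Excitatory neurons followed at 357, 464, 357, 463, 396, 468, 463 and 380 CPM (mean 418.5 ± 50.9), and the difference between these neuron classes was within their spread. Excitatory neurons held 70.2% of the Tnr UMIs in the named classes. Astrocytes had a mean of 58.0 CPM of Tnr.

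In fibroblasts Tnr stood at 81.1, 185, 125, 317, 75.5, 289, 86.6 and 79.5 CPM. The summed level of 7 neuron genes in the same fibroblast nuclei was 671, 2111, 1735, 3373, 582, 1946, 1542 and 711 CPM. Both were highest in BCAS 2 and low in control 1, TBI 1 and BCAS+TBI 2, whereas BCAS+TBI 1 was low for Tnr alone. Without nuclei of very high UMI count, the fibroblast mean of Tnr was 58.2 CPM in place of 154.9 CPM. The part of neuron RNA in the Tnr level was not tested.

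Within astrocyte-like nuclei the members differed between 2 clusters. The larger one (2208 nuclei) was led by Aqp4, Gfap and Slc1a2, and the smaller one (1086 nuclei) by Slc6a11, Itih3 and Agt. Tnc averaged 177 CPM (116 to 230 over libraries) in the larger cluster and 25.3 CPM (11.7 to 53.4) in the smaller. Hapln1 averaged 149 CPM (121 to 173) and 20.2 CPM (9.4 to 30.9). Cspg5 averaged 874 CPM (620 to 1109) and 240 CPM (132 to 369), and Ncan 317 CPM (239 to 381) and 150 CPM (120 to 209). Bcan was closer, at 827 CPM (734 to 939) and 578 CPM (447 to 705). None of these 5 ranges overlapped. Those of Ptprz1 (means 2231 and 1869 CPM), Vcan (52.0 and 24.6 CPM) and Tnr (58.9 and 54.5 CPM) did. The larger cluster made up 58.06% to 74.34% of the astrocyte-like nuclei of a library, highest in TBI 1 and BCAS+TBI 1.

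Interneurons were then separated by single markers: a nucleus with a UMI of 1 of Pvalb, Sst, Vip and Lamp5 and none of the other 3. Pvalb nuclei numbered 334, Sst 1134, Vip 554 and Lamp5 328. The Pvalb nuclei held the most Acan and Bcan. Acan stood there at 18.9, 26.7, 45.5, 22.8, 25.6, 29.4, 27.1 and 19.8 CPM (mean 27.0 ± 8.31, 67 UMIs), with every library above the highest Sst (7.62 CPM) or Vip (5.64 CPM) library. The Acan mean of precursors was 23.6 CPM, with an overlapping range (9.49 to 36.7 CPM). Bcan averaged 140.1 ± 29.9 CPM in Pvalb nuclei (101.6 to 183.1), 27.4 CPM in Sst nuclei (16.8 to 36.4), 19.4 CPM in Vip nuclei and 12.2 CPM in Lamp5 nuclei.

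Lamp5 nuclei, a set that includes neurogliaform cells, held Hapln1 and Vcan. Hapln1 stood at 200, 268.1, 304.5, 279.2, 239.4, 208.2, 295.7 and 219.6 CPM there (mean 251.8 ± 40.5), against 27.2 CPM (12.8 to 37.9) in Pvalb nuclei, 14.0 CPM in Sst nuclei and 13.9 CPM in Vip nuclei. All of these Lamp5 values lay above the highest astrocyte library (127 CPM). Vcan averaged 121.1 ± 60.4 CPM in Lamp5 nuclei, with each library above all Sst, Vip and Pvalb libraries (at most 39.5 CPM). The link protein that is associated with perineuronal nets was lower in the Pvalb nuclei than in the Lamp5 nuclei in all 8 libraries.

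Vip nuclei held Ptprz1 at 621.1 ± 92.4 CPM (497.5 to 747.6), above every Sst (105 to 161 CPM), Lamp5 (27.5 to 146.5 CPM) and Pvalb (28.3 to 96.1 CPM) library. Tnr was higher in Pvalb nuclei (470.1 ± 94.4 CPM) and Sst nuclei (367.0 ± 45.8 CPM) than in Vip (184.2 CPM) and Lamp5 nuclei (191.5 CPM), and the Pvalb and Sst ranges overlapped. Ncan ranges overlapped between all 4 kinds of nuclei. Each of these sets has 24 or more nuclei per library, and the single-marker gate misses nuclei whose marker was not captured.

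**Figure D2:**
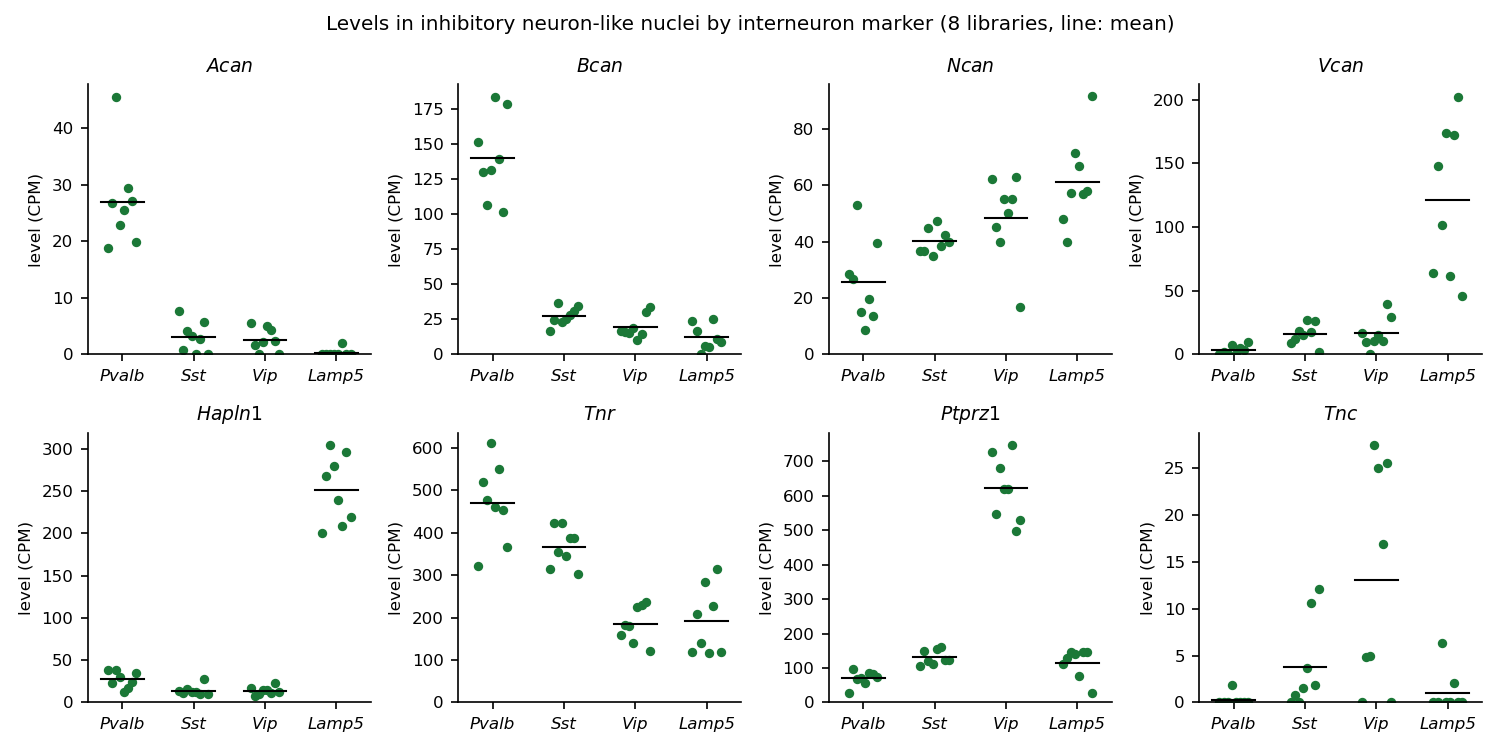
Level in CPM of 8 of the genes in inhibitory neuron-like nuclei gated by 1 marker (Pvalb, Sst, Vip or Lamp5); each point is 1 of 8 libraries and the line is their mean. Acan and Bcan are highest in Pvalb nuclei, Hapln1 and Vcan in Lamp5 nuclei, and Ptprz1 in Vip nuclei.

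Among clusters of neurons, Tnr was highest in one led by C1ql3 and Prox1, at 719.0 ± 112.8 CPM. Tnc, low in most neurons, reached 20.2 ± 3.16 CPM in an excitatory cluster led by Synpo2, Ntng1 and Prkcd, which gave 375 of the 527 Tnc UMIs in excitatory neurons. In the inhibitory class Tnc stood at 12.9 CPM in a cluster led by Vip and between 0 and 6.47 CPM in the libraries of the Sst-led one.

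The genes whose levels followed a member most closely over the 12 named classes were looked up among 7694 genes with at least 50 CPM in 1 class, as a description. The closest to Vcan was Has2, a hyaluronan synthase (Pearson r = 0.966 over 12 classes), which stood at 52.9 ± 14.9 CPM in precursors and at 5.71 CPM in the next class. The closest to Tnr was the precursor marker Lhfpl3 (r = 0.968). Bcan and Ptprz1 were both closest to Rimklb (r = 0.971 and 0.975), and Ncan and Cspg5 to Slitrk2 (r = 0.959 and 0.958). The closest genes were Cyp2j9 to Tnc (r = 0.978), Cxcl14 to Hapln1 (r = 0.959), Plpp4 to Acan (r = 0.942) and Susd5 to Cspg4 (r = 0.927). Since 12 classes from the same libraries make 12 points that share depth, these values carry no test.

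**Figure D3:**
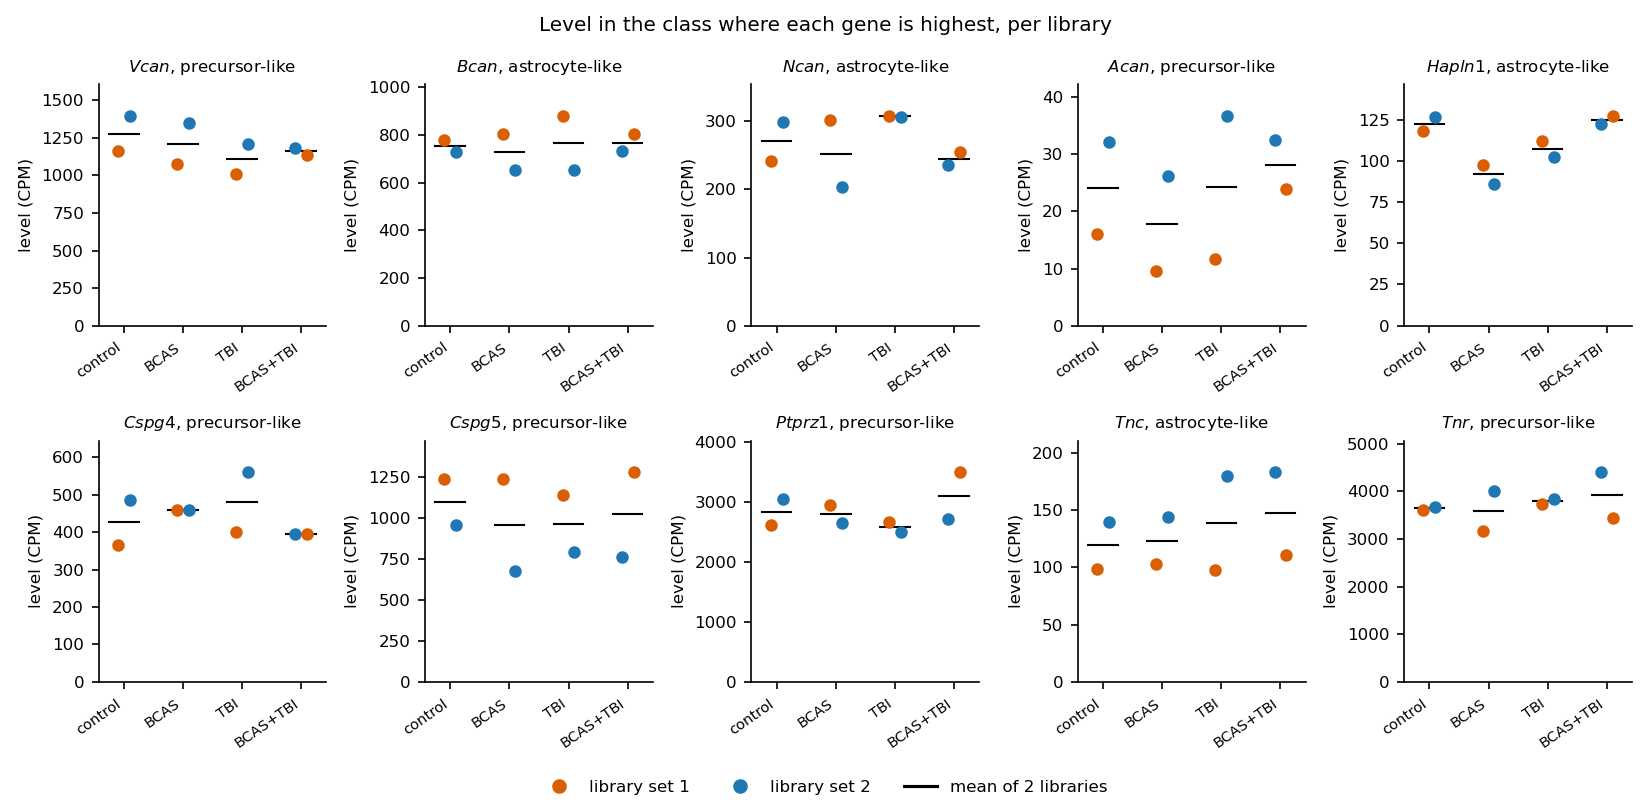
Level in CPM (linear axis from 0) of each gene in the class where it is highest, by group; each point is 1 library, coloured by library set (set 1 shallow, set 2 deep), and the line is the mean of the 2 libraries. For Cspg5 in precursors the 2 libraries of each group lie farther apart than the group means do, whereas for Hapln1 in astrocytes both BCAS libraries lie lowest.

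Across the 4 groups no member passed the test. Of the 110 class-gene pairs that 10 members make in the 11 testable classes, 57 had enough counts. Those 57 were tested among 91018 pairs of all genes with edgeR's quasi-likelihood test and Benjamini-Hochberg adjustment over all pairs. For TBI averaged over BCAS, 0 of 57 were called, against 0.0% of all pairs, and 2 members' pairs had an unadjusted p under 0.05 against 0.966% of all pairs. For BCAS averaged over TBI, 0 were called (background 0.0%), with 1 at an unadjusted p under 0.05 (background 0.95%). The interaction (0 called, background 0.0%; 1 unadjusted, 0.979%), BCAS+TBI against TBI (0 called, 0.0%; 1 unadjusted, 0.892%) and BCAS+TBI against control (0 called, 0.0%; 1 unadjusted, 0.822%) had the same counts. DESeq2 called 0 members, and 0 of all pairs, in each of the 5 comparisons. At an unadjusted DESeq2 p under 0.05 there were 0, 0, 0, 0 and 1 members' pairs. Of all 91018 pairs, 235, 272, 248, 183 and 208 had one.

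With the library-set block, edgeR still called 0 of 57 members in each comparison, while 6, 24, 2, 14 and 19 of the 91018 pairs were called (0.00659%, 0.0264%, 0.0022%, 0.0154% and 0.0209%). At an unadjusted p under 0.05 the block left 6, 3, 6, 3 and 3 members' pairs, beside 4.56%, 3.83%, 4.94%, 4.14% and 3.7% of all pairs. Without the block, the median log2 fold change of the 57 pairs for TBI averaged over BCAS was 0.03, beside 0.00 over all pairs, and 34 of 57 were above 0 beside 50.9% of all pairs. Without the block, the 95% intervals lay wholly within a 2-fold change either way for 40 of the 57 pairs for TBI, 42 for BCAS and 13 for the interaction, and with it for 47, 48 and 26. No member had 4 libraries with TBI surgery wholly above or below the 4 without, where 0.604% of all pairs were higher and 0.719% lower in that way. The same held for BCAS surgery, where 0.581% of all pairs were higher and 0.67% lower. How often the libraries of 1 group lay apart from all others was not counted over all pairs, so such patterns below are descriptions only.

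**Figure D4:**
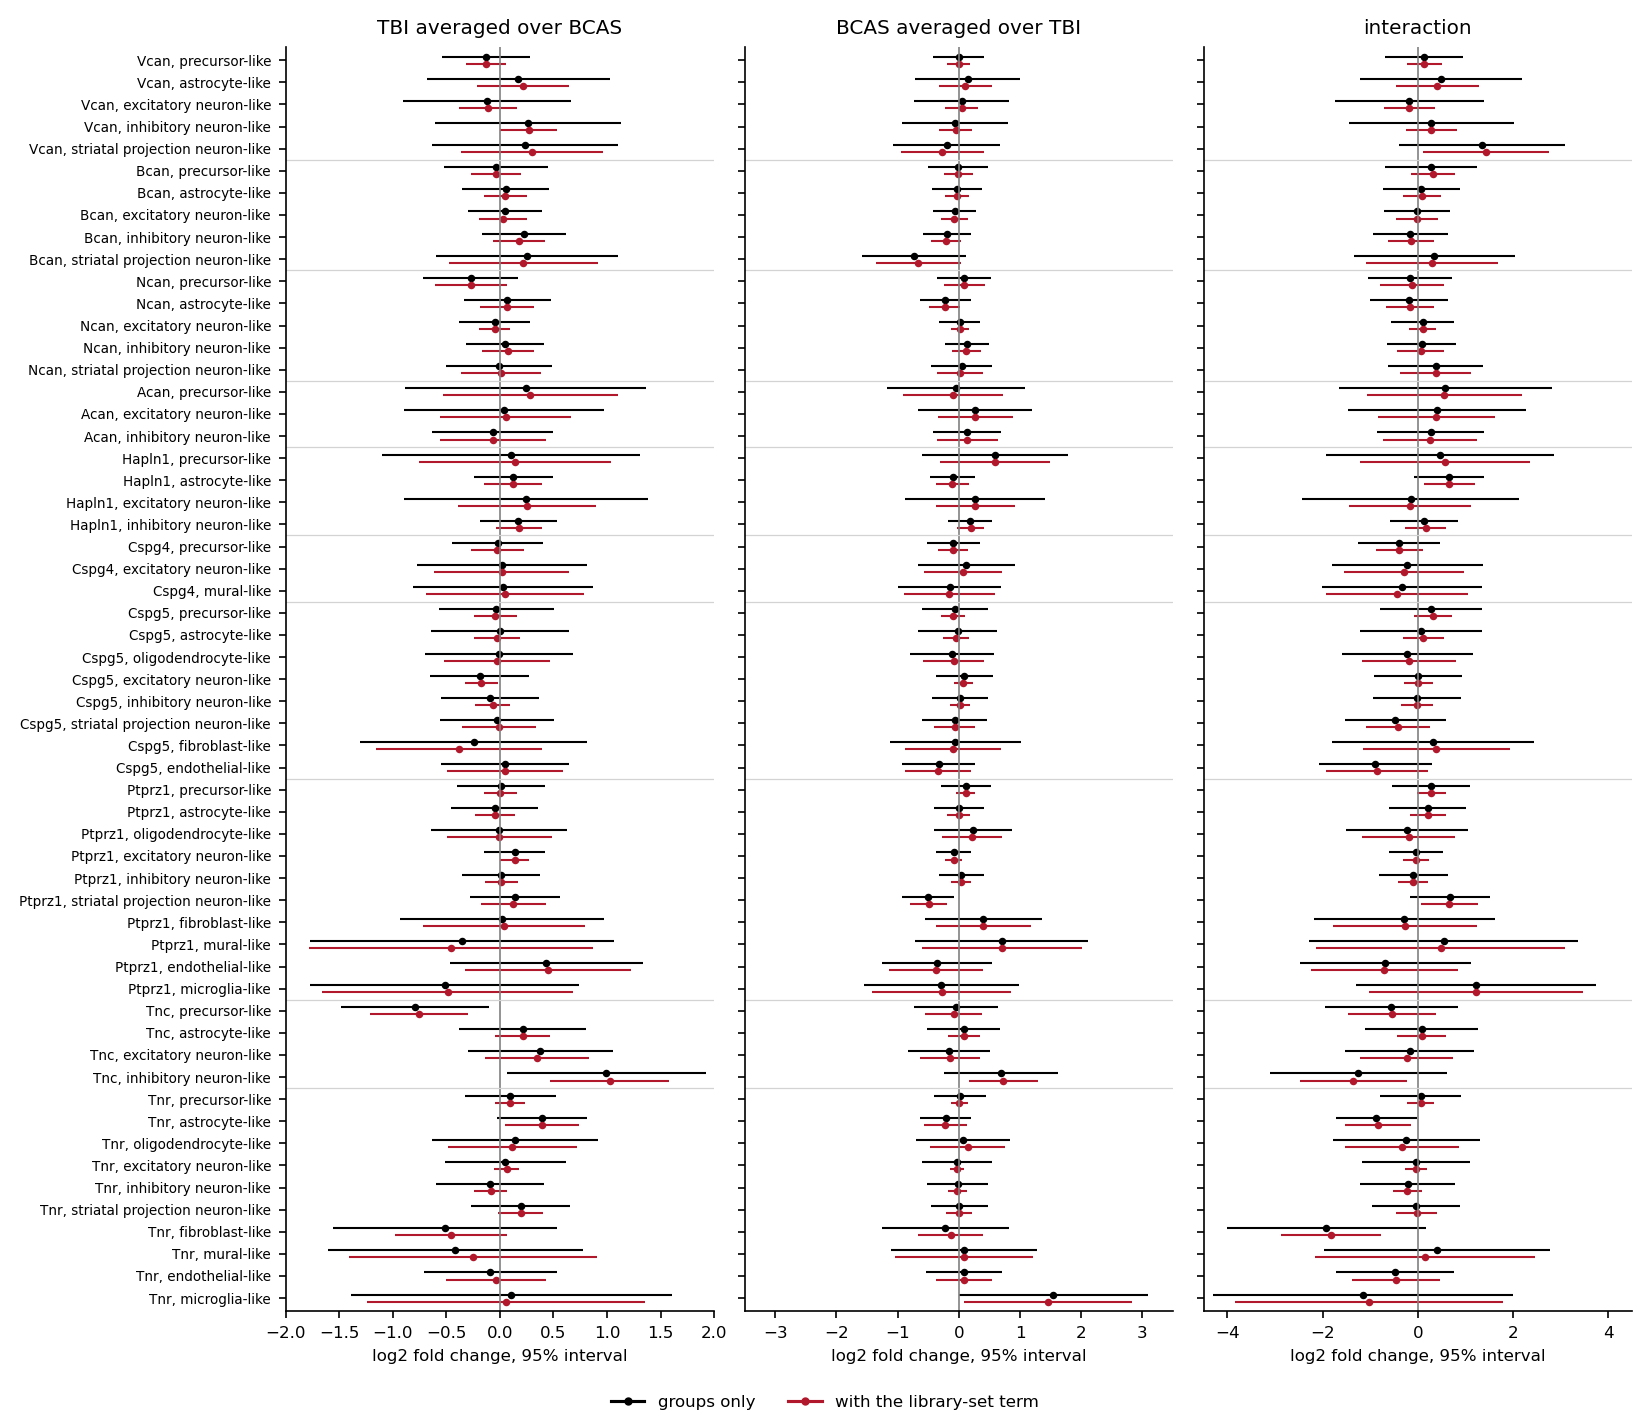
Log2 fold change with its 95% interval (horizontal axes, scaled separately) for each of the 57 tested class-gene pairs (rows), for TBI averaged over BCAS, BCAS averaged over TBI and their interaction. Black is the model of groups only and red the model with the library-set block; no pair passes the adjusted threshold, and the intervals of the interaction are the widest.

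For the lecticans the injury estimates were close to 0. Vcan in precursors differed by -0.13 on the log2 scale (SE 0.19, 95% interval -0.54 to 0.28) for TBI averaged over BCAS. Bcan in astrocytes differed by 0.06 (SE 0.18, interval -0.35 to 0.46) and Ncan in astrocytes by 0.07 (SE 0.18, interval -0.34 to 0.48). These intervals leave room for changes of up to about 1.5-fold. Acan was less well measured in precursors, at 0.24 (SE 0.52, interval -0.88 to 1.37), than in inhibitory neurons, at -0.07 (SE 0.24, interval -0.63 to 0.49).

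Hapln1 differed by 0.13 in astrocytes (SE 0.16, interval -0.24 to 0.49) and by 0.17 in inhibitory neurons (SE 0.16, interval -0.18 to 0.53) for TBI averaged over BCAS. Its interaction in astrocytes was 0.66 (SE 0.33, interval -0.08 to 1.39). In the per-library values above, BCAS alone had the lowest mean and BCAS+TBI the highest, and both BCAS libraries (97.4 and 86.2 CPM) lay below the other 6. With the block it was 0.66 (SE 0.26), and neither passed the adjusted threshold.

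Among the membrane proteoglycans, Cspg4 in precursors differed by -0.02 (SE 0.20, interval -0.45 to 0.41) and Cspg5 in precursors by -0.04 (SE 0.25, interval -0.57 to 0.50). Ptprz1 in astrocytes differed by -0.05 (SE 0.18, interval -0.45 to 0.35), all for TBI averaged over BCAS. For BCAS averaged over TBI, Ptprz1 in striatal projection neurons was the 1 member pair at an unadjusted p under 0.05. Its levels there were 194, 138, 79.3, 102, 139, 148, 141 and 116 CPM, so that the 2 libraries with BCAS alone were the lowest 2 of the 8. The estimate was -0.50 (SE 0.19, interval -0.92 to -0.08), and -0.49 with the block (SE 0.15, edgeR adjusted p = 0.870 with Benjamini-Hochberg). With nuclei gated one by one on markers it turned to 0.22.

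Tnc had the largest estimates of the members for TBI averaged over BCAS, and they differed in sign between classes. In precursors, where 3 of the 4 libraries without TBI surgery stood above all 4 with it and control 1 stood among the latter, the estimate was -0.79 (SE 0.32, interval -1.49 to -0.10). With the block it was -0.76 (SE 0.23, edgeR adjusted p = 0.654 with Benjamini-Hochberg). In astrocytes the estimate was 0.21 (SE 0.26, interval -0.38 to 0.81). No test compared the classes.

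In inhibitory neurons Tnc stood at 2.26, 2.56, 3.98, 7.68, 4.92, 9.64, 9.44 and 6.04 CPM on 4, 11, 8, 31, 10, 50, 33 and 10 UMIs. Both control libraries were the lowest, and the libraries with BCAS alone overlapped those with TBI. The estimate for TBI averaged over BCAS was 0.99 (SE 0.40, interval 0.06 to 1.92; with the block 1.03, SE 0.27, edgeR adjusted p = 0.5285 with Benjamini-Hochberg). For BCAS+TBI against control it was 1.68 (SE 0.60, interval 0.29 to 3.07; with the block 1.75, SE 0.42, edgeR adjusted p = 0.547 with Benjamini-Hochberg). Within the Vip-led cluster Tnc stood at 7.288, 6.073, 8.387, 18.21, 13.2, 24.99, 20.16 and 5.218 CPM, the last in BCAS+TBI 2. The summed astrocyte markers in the inhibitory nuclei were 262, 293, 311, 327, 356, 304, 292 and 252 CPM, and their part in the Tnc values was not tested.

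Tnr in precursors differed by 0.10 (SE 0.20, interval -0.33 to 0.52) for TBI averaged over BCAS. In astrocytes Tnr stood at 44.6, 46.0, 60.4, 46.7, 78.3, 85.2, 53.4 and 49.3 CPM, with both TBI libraries above all others. Tnr in BCAS+TBI against TBI was -0.65 (SE 0.26, interval -1.25 to -0.06) and in the interaction -0.87 (SE 0.38, interval -1.72 to -0.03), neither of which passed the adjusted threshold. With the block the interaction was -0.84 (SE 0.34), and with nuclei gated one by one it was 0.0252. The summed neuron genes in the same astrocytes were 365, 481, 442, 715, 283, 795, 477 and 453 CPM, high in TBI 2 but lowest in TBI 1. In fibroblasts the Tnr interaction was -1.93 (SE 0.92, interval -4.02 to 0.17; with the block -1.82, SE 0.49). It was -3.75 without nuclei of very high UMI count, -1.04 without BCAS 2 and -0.58 without TBI 2, and with the block -1.15 without TBI 2 and -1.005 without BCAS+TBI 1. The neuron genes in the same fibroblasts are given above, and their part in this interaction was not tested.

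With the library-set block the pairs at an unadjusted p under 0.05 for TBI averaged over BCAS were Tnc in precursors and inhibitory neurons, Tnr in astrocytes, Vcan in inhibitory neurons, and Cspg5 and Ptprz1 in excitatory neurons. The estimates in excitatory neurons were small and well measured. Cspg5 stood there at 110.3, 72.0, 126.2, 69.6, 90.3, 68.1, 69.5 and 101.2 CPM, and its estimate was -0.17 (SE 0.072, interval -0.33 to -0.01). Within each library set, the Cspg5 values with TBI surgery lay below those without it, but in the deep libraries by as little as 69.5 against 69.6 CPM. The share of all pairs ordered in this way was not counted. Ptprz1 stood at 88.6, 80.0, 80.1, 81.1, 98.9, 89.0, 86.4 and 89.1 CPM, and its estimate was 0.14 (SE 0.060, interval 0.00 to 0.27). Vcan in inhibitory neurons was at 0.27 (SE 0.13, interval 0.00 to 0.54), and these 3 pairs had an adjusted p of 1.0 by edgeR with Benjamini-Hochberg adjustment.

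For BCAS averaged over TBI, the highest estimate of the members was Tnr in microglia, at 1.54 (SE 0.71, interval -0.01 to 3.08). Its levels there were 13.0, 32.9, 165.6, 57.3, 14.9, 71.3, 39.3 and 105.2 CPM, and the libraries with and without BCAS overlapped. They rest on 56 Tnr UMIs in 33 nuclei over the 8 libraries. The 7 neuron genes summed to 648, 682, 1336, 1592, 498, 1284, 835 and 1141 CPM in the same microglia, lowest in control 1, control 2 and TBI 1, and their part in the Tnr level was not tested. In striatal projection neurons the Vcan interaction with the block was 1.43 (SE 0.64, interval 0.10 to 2.76), on levels of 10.2 to 28.8 CPM.

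More of the members' pairs differed between the sets of libraries than between the groups, and the same was so for all pairs. This comparison was chosen after the depth of the libraries had been seen. In the block model 22 of the 57 members' pairs differed between the deep and the shallow libraries, 16 higher and 6 lower in the deep ones, beside 33.4% of all pairs (15.1% higher and 18.3% lower). The members' direction was gene by gene. Vcan was higher in the deep libraries in 4 of 5 classes, by 0.99 ± 0.14 (log2 fold change ± SE) in inhibitory neurons, 0.87 ± 0.21 in astrocytes, 0.77 ± 0.12 in excitatory neurons and 0.25 ± 0.093 in precursors. Tnc was higher in 3 of 4 classes, by 0.65 ± 0.13 in astrocytes, 0.66 ± 0.24 in precursors and 0.89 ± 0.28 in inhibitory neurons.

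Tnr was higher in the deep libraries in 5 of 10 classes, by 0.52 ± 0.052 in excitatory neurons and 1.23 ± 0.25 in fibroblasts, where the summed neuron genes were 1542 to 3373 CPM in the deep and 582 to 1735 CPM in the shallow libraries. Cspg5 went the other way in 5 of 8 classes, by -0.71 ± 0.10 in astrocytes (edgeR adjusted p = 1.4e-05 with Benjamini-Hochberg) and -0.60 ± 0.099 in precursors. Bcan was lower in precursors, by -0.49 ± 0.12. Cspg4 differed in none of its 3 classes. DESeq2 called 14 of the 57 in place of 22, beside 17857 of all 91018 pairs. What separates the sets is not given in the labels, and depth, mitochondrial share and ribosomal share cannot be told apart as they move together.

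**Figure D5:**
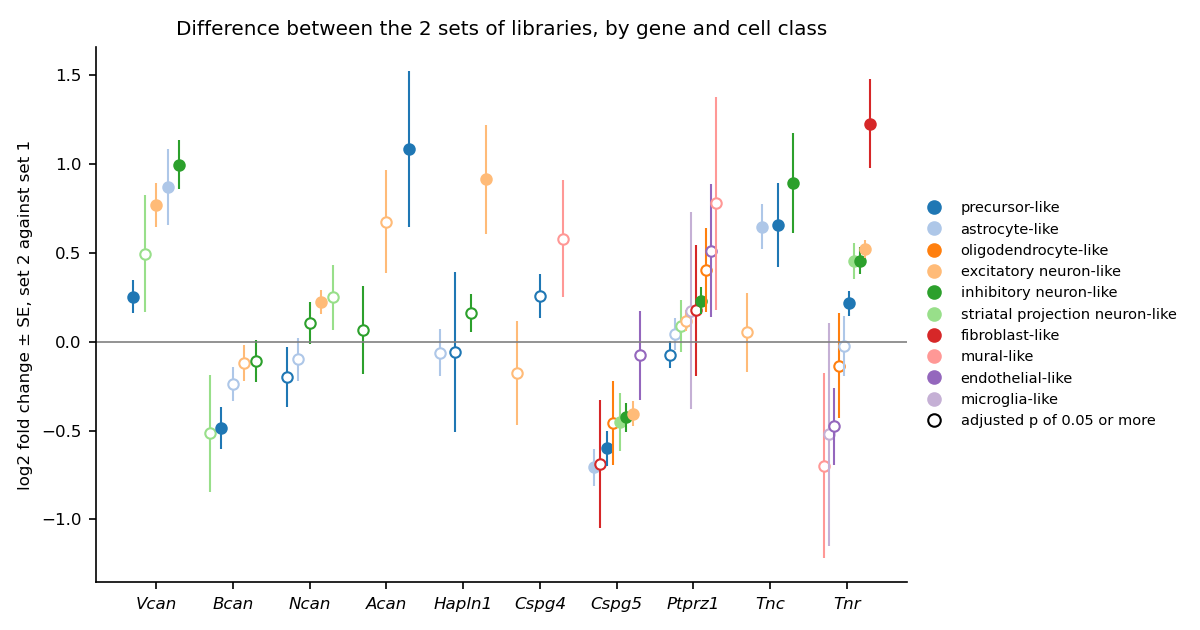
Log2 fold change between the deep and the shallow libraries (set 2 against set 1, vertical axis) with its SE, for each gene (horizontal axis) and tested cell class (colour); filled points have an adjusted edgeR p under 0.05 and open points do not. The filled points of Vcan, Tnc and Tnr lie above 0 and those of Cspg5 and Bcan below it.

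The genes that build, bind and cut this matrix were read from lists of 73 genes in all, and none was called in any of the 5 comparisons, with or without the block. For TBI averaged over BCAS, the median log2 fold change was 0.008 over 76 pairs of chain synthesis genes and 0.03 over 28 pairs of chondroitin sulfotransferases. It was 0.04 over 21 pairs of hyaluronan and link protein genes and -0.02 over 92 pairs of receptors and ligands. For proteases and inhibitors it was 0.07 over 52 pairs, and for other matrix genes 0.02 over 49, beside 0.00 over all pairs. At an unadjusted edgeR p under 0.05 for TBI averaged over BCAS, none of these lists had a pair without the block (0.966% of all pairs), and 1, 1, 0, 4, 1 and 5 pairs had one with it (4.56% of all pairs). In the interaction without the block, 3 of 49 pairs of other matrix genes and 2 of 92 pairs of receptors and ligands had one (0.979% of all pairs). For BCAS+TBI against TBI 2 of the 49 had one (0.892%).

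The list genes with the smallest p in glia or fibroblasts were Itgb1, an integrin subunit, and Sparc, a secreted matrix glycoprotein. Sparc in fibroblasts stood at 248.7, 184.9, 125.2, 143.2, 226.4, 171.3, 236.7 and 365.9 CPM and differed by 0.52 (SE 0.24). Itgb1 in fibroblasts differed by 0.48 (SE 0.21). With the block the estimates were 0.49 for Sparc (SE 0.19) and 0.47 for Itgb1 (SE 0.19), with an adjusted p of 1.0 by edgeR with Benjamini-Hochberg adjustment. For both genes the libraries with BCAS alone were the lowest. In the same nuclei the summed neuron genes, given above, were highest in BCAS 2 (3373 CPM), where the summed fibroblast markers were lowest (3721 CPM of a range up to 6911 CPM), and the part of either in these values was not tested. Chpf2, a chondroitin polymerizing factor, differed by -0.43 in astrocytes (SE 0.25; with the block also -0.43, SE 0.20).

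Precursors, the class with the highest levels of Vcan and Tnr, also led for 3 of the 13 chain synthesis genes and 1 of the 8 chondroitin sulfotransferases. Of these 4 genes, 2 are given here, chosen after their values were seen. Xylt1, which adds the first sugar of the chain, averaged 1967 ± 255 CPM in precursors and 350 CPM in astrocytes. Chst11, a chondroitin 4-O-sulfotransferase, averaged 644 ± 113 CPM in precursors and 204 CPM in astrocytes. Of the proteases that cleave lecticans, Adamts4 was highest in oligodendrocytes (104 CPM) and Adamts9 in astrocytes (218 CPM). The fibroblast matrix was of other genes: Dcn (503 CPM), Fmod (196 CPM) and the hyaluronidase Cemip (574 CPM) were highest there.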

How the data were processed

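Nuclei were prepared from frozen tissue and sequenced with the 10x Genomics 3′ kit, per the labels' protocols. The authors deposited raw UMI counts per gene and barcode, and per the file headers Cell Ranger 7.0.0 wrote them; the submitters' processing notes name GRCm38, mm10 and Seurat. The members and gene lists here were chosen with earlier results of these data known. Of 53390 barcodes, 4922 with under 500 UMIs, under 300 genes or over 5% mitochondrial UMIs were left out. Scrublet's own threshold marked 7 doublets in all, so the 6% of each library with the highest doublet score were removed instead (2908). Clusters came from scanpy 1.11.5 (3000 variable genes without the members, 30 components, 15 neighbours, Leiden resolution 1) and were named from fixed markers; 11504 nuclei stayed unnamed. A class was tested if every library had 20 or more of its nuclei.

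Counts were summed per library and class and tested across the 8 libraries with edgeR 4.0.16 in R 4.3.3 (TMM, quasi-likelihood test, genes kept by filterByExpr at its default minimum of 10 counts, Benjamini-Hochberg over all class-gene pairs, threshold 0.05). DESeq2 1.42.0 was an alternative. The edgeR test without the block was tried on simulated counts of astrocytes for TBI averaged over BCAS only. Those counts had no difference between library sets other than depth. The other classes and comparisons, the block and DESeq2 were not tried in this way. The library-set block splits the libraries at the widest gap of log total UMIs. All members are named, and of each list the gene with the smallest p for TBI in astrocytes, precursors or fibroblasts may be named. Likeness is Pearson's r of mean log2(CPM + 10) over classes. The replicate numbers of the labels do not pair the libraries: over genes in excitatory neurons, the deviation of replicate 1 from its group mean correlated at 0.841 to 0.866 among control, BCAS and TBI and at -0.861 to -0.900 with BCAS+TBI. Gene positions come from GENCODE M21, which holds 54079 of the 54232 gene IDs, and promoter windows from RefSeq. Protein sequences were not used here.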

Additional observations from a re-analysis of the deposited data

How the results depend on the processing

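No member was called in any of the 5 comparisons under any of 32 alternatives, and the smallest adjusted p was 0.132 (Tnc in precursors for TBI, edgeR with the library-set block and without BCAS 2, log2 fold change -1.09). Of the 20 fold changes followed in those comparisons, 9 had 1 direction throughout, and none of those that turned was called. With the replicate block, 0 members were called in each comparison, and Tnc in inhibitory neurons for TBI was 1.05. DESeq2 called 14 of the 57 members' pairs between the library sets in place of 22, beside 17857 of all 91018 pairs. When 1 library was left out, edgeR called 17 to 20 of 63 to 67 members' pairs. Beside them, 23232 to 26696 of 96871 to 103358 pairs of all genes were called. Estimates for TBI averaged over BCAS that turned when 1 library was left out ranged from -0.0618 to 0.160 for Bcan and -0.0652 to 0.222 for Ncan in astrocytes, from -0.30 to 0.77 for Acan, -0.18 to 0.10 for Cspg4, -0.24 to 0.19 for Cspg5 and -0.0171 to 0.20 for Tnr in precursors, and from -0.116 to 0.0202 for Ptprz1 and -0.0198 to 0.41 for Tnc in astrocytes. Acan in inhibitory neurons for TBI was 0.0081 without nuclei of high UMI count, 0.0063 with the block as well, 0.072 at Leiden resolution 2 and 0.071 with nuclei gated one by one. That gate also gave -0.0295 for Ncan in astrocytes for TBI, 0.22 for Ptprz1 in striatal projection neurons for BCAS and 0.0252 for the Tnr interaction in astrocytes. Levels under the gate were 458.9 CPM for Vcan, 10.8 CPM for Acan, 166.5 CPM for Cspg4, 492.1 CPM for Cspg5, 1205 CPM for Ptprz1 and 1580 CPM for Tnr in precursors, and 136 CPM for Bcan, 91.6 CPM for Ncan, 20.7 CPM for Tnc and 19.3 CPM for Hapln1 in astrocytes. As astrocytes, the gate admits many nuclei that the clusters place elsewhere, while it keeps fewer nuclei as precursors. The cause of each shift was not tested. Depth limits values on few UMIs, such as those of Acan in precursors (67 UMIs over 8 libraries) and Tnc in inhibitory neurons (157).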
